A study of Mus musculus with 8 samples.

Results

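The genes described here encode the enzymes, transporters and regulatory subunits of glycolysis, lactate handling and glycogen metabolism, 37 genes in all. They were taken from the array by name, from every non-control probe whose gene name is one of the 37. All 37 were on the array, with 72 probes, and all 37 were among the 16016 genes that could be tested. RNA came from the tibialis anterior, a fast muscle at the front of the shin. The mice were C57BL/6 males of 8 weeks. The groups were 4 Prep1f/+ mice, the controls, and 4 Prep1deltaSM mice, in which Prep1 was ablated in skeletal muscle, with 1 Cy3-labelled array per mouse. The study's text calls the controls Prep1 flox mice, the labels give their genotype as Prep1f/+, and the Cre line behind Prep1deltaSM is not given in the sources used here. Prep1 is the protein of the gene Pknox1, a homeodomain transcription factor that binds DNA together with Pbx partners.

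Muscle breaks glucose down to pyruvate in the cytosol and, in fast fibres, turns much of that pyruvate into lactate. Glycogen, the branched glucose store of the fibre, is cut by glycogen phosphorylase when phosphorylase kinase switches that enzyme on, and it is rebuilt by glycogen synthase. Many steps have a muscle form of the enzyme and another form that is used in other cells or in slow, oxidative fibres, so the forms are given beside each other below. In RNA from whole muscle, fewer cells of a type and less RNA per cell cannot be told apart.

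All levels are log2 signals relative to the 75th percentile of the array, so that 0 is the level of that percentile, and every difference is Prep1deltaSM minus Prep1f/+ on the log2 scale. Levels are compared between mice for 1 probe at a time, not between genes. Precision is limited by the 4 arrays per group, each with 23787 to 27123 spots well above background. Per the file headers the arrays came from 4 slides, each with 1 mouse of either genotype. Pknox1 itself differed by -1.76 ± 0.13 (SE; limma adjusted p = 0.0072), from -0.28 ± 0.18 (SD, n = 4) to -2.04 ± 0.19 (SD, n = 4), and was the 1 gene of 16016 past an adjusted p of 0.05. The place of its probe relative to the deletion is not known here. With normexp background correction and quantile normalization the difference was -0.89. Blocking on slide gave an adjusted p of 0.062. Leaving out Prep1f/+ replicate 2 gave 0.0656, Prep1f/+ replicate 3 gave 0.0641 and Prep1deltaSM replicate 2 gave 0.0738. The 12 fast fibre and 6 general muscle genes listed as markers were all measured above the filter on dim probes. All 3 keratinocyte and all 4 Schwann cell markers passed it too, so passing the filter does not check muscle identity.

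Across the 37 genes, no difference passed the adjusted threshold: 0 of 37 had an adjusted p under 0.05 (limma), where 0.00624% of all genes did, and the lowest adjusted p was 0.208. At an unadjusted p under 0.05 there were 8 of the 37, which is 21.6%, against 15.9% of all genes. Higher in Prep1deltaSM were 3 of these 8 (Eno1, Pygm and Pygb), where 5.54% of all genes were called in that direction. Lower were 5 (Pfkl, Pfkm, Ldhb, Phkg2 and Ugp2), where 10.3% of all genes were. The groups did not overlap for 5 of the 37 (13.5%; 10.5% of all genes), namely Pygm above the controls (3.72% of all genes) and Pfkm, Ldhb, Phkg2 and Ugp2 below them (6.74% of all genes). By sign, 16 were higher and 21 lower, while 37.3% of all genes were higher and 62.7% lower. The median difference was -0.05 over the 37 and -0.07 over all genes. It was 0.06 after quantile normalization, so the sign of the median depended on the scaling.

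Most differences were small. The size of the difference was under 0.2 for 24 of the 37, and 23 kept 1 sign under all alternatives tried. Another 13 turned sign in at least 1 alternative, and 1, Aldoa, was at 0 in those with quantile normalization. Without Prep1deltaSM replicate 1 the count at an unadjusted p under 0.05 was 4 in place of 8, and without Prep1deltaSM replicate 3 it was 5. The median spread between mice of 1 group was 0.19 (pooled SD) both for the 37 and for all genes.

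**Figure D1:**
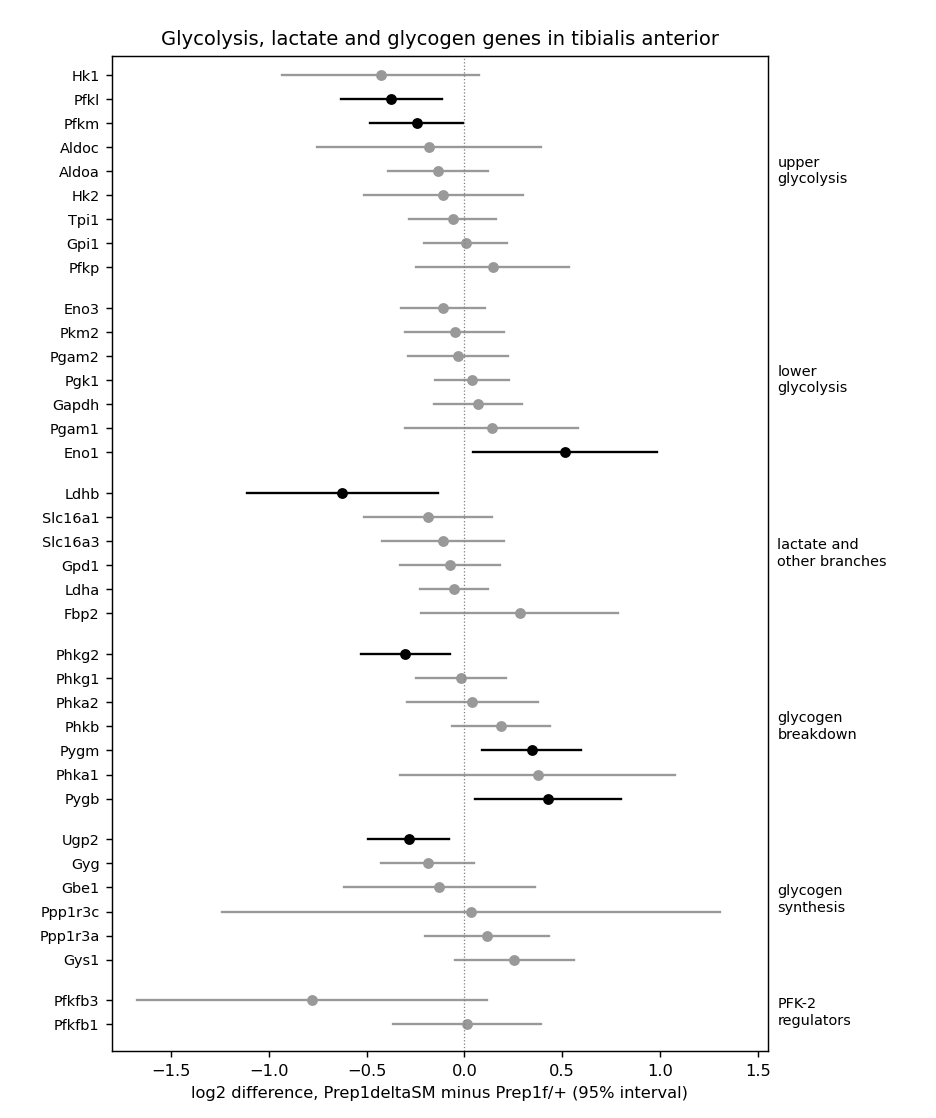
Log2 difference between Prep1deltaSM and Prep1f/+ (x axis; points, with 95% intervals as bars; n = 4 mice per group) for the 37 genes, ordered by role. The 8 genes with an unadjusted p under 0.05 are black and the others grey; the intervals of Pfkfb3 and Ppp1r3c are the widest.

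The upper part of glycolysis, from the trapping of glucose by hexokinase to the triose phosphates, held 9 of the genes, of which 2 were higher and 7 lower (median -0.14). At an unadjusted p under 0.05 were 2 of the 9, where 15.9% of all genes were, and both encode phosphofructokinase, the main control point of the pathway. Pfkm, the muscle subunit (probe on chromosome 15, from 97962713 to 97962772 in mm9), had log2 signals of 10.16, 10.41, 10.17 and 10.16 in Prep1f/+ replicates 1 to 4 and of 9.78, 10.01, 10.00 and 10.13 in Prep1deltaSM replicates 1 to 4. All 4 Prep1deltaSM mice lay below all controls, narrowly at the nearest values (10.13 and 10.16), and Prep1f/+ replicate 2 stood above the other controls. On slides 1 to 4 the differences were -0.63, -0.16, -0.03 and -0.16, so slide 1 carried most of it. With slide as a block the unadjusted p was 0.107 (limma). With 4 mice per group, groups that do not overlap always give an exact permutation p of 0.0286, so that p adds nothing to the separation. The difference was -0.24 ± 0.10 (SE; 95% interval -0.48 to -0.01; exact permutation p = 0.0286; limma adjusted p = 0.306), and it was -0.18 without Prep1f/+ replicate 2 and -0.13 after quantile normalization.

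Pfkl, the liver-type subunit (chromosome 10, from 77450926 to 77450985 in mm9), had signals of -1.37, -1.57, -1.53 and -1.71 in Prep1f/+ and of -1.99, -1.70, -1.90 and -2.08 in Prep1deltaSM. The groups met at their edges, where Prep1deltaSM replicate 2 lay level with Prep1f/+ replicate 4. The difference was -0.37 ± 0.11 (SE; exact permutation p = 0.0571; limma adjusted p = 0.208) and was lower on all 4 slides, from -0.71 to -0.17. With normexp background correction and quantile normalization it was -0.17.

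Pfkp, the platelet-type subunit, was measured by 3 probes that gave different answers. They are shown because the gene's result turns on which of them is read. Each probe has 60 bases and lies on chromosome 13, on the minus strand (mm9); the first 30 bases are given, 5′ to 3′.

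A_51_P378856: caaactgaaggggtcccagggcacagggaa

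A_52_P223083: cgaaagatccaaggcaaacaaaacatccaa

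A_52_P572045: cttcatggtctcagaatttccttcagagtt

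A_51_P378856, from 6581718 to 6583872, a span longer than the probe, as across a splice junction, is the brightest and stands for the gene in the counts above. It differed by 0.15 ± 0.17 (SE), with signals from -1.69 to -1.08 in Prep1f/+ and from -1.57 to -1.0 in Prep1deltaSM. A_52_P223083, from 6588296 to 6588355, differed by 0.09 ± 0.15 (SE). Neither probe separated the groups. A_52_P572045, from 6579124 to 6579183, had signals of -1.87, -1.61, -1.66 and -1.54 in Prep1f/+ and of -2.94, -2.84, -2.75 and -2.22 in Prep1deltaSM. On this probe every Prep1deltaSM mouse lay below every control, with a difference of -1.02 ± 0.16 (SE; limma adjusted p = 0.0971 over all 24488 kept probes). It was singled out after its values were seen. It did not pass the adjusted threshold either, and the exon or UTR that each probe lies in was not settled here.

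Of the hexokinases, Hk2, the insulin-regulated muscle form, had signals of 5.62, 5.17, 4.94 and 5.15 in Prep1f/+ and of 5.09, 5.01, 4.86 and 5.48 in Prep1deltaSM. The highest value of each group came from slide 3, and the groups overlapped (-0.11 ± 0.18, SE); without Prep1f/+ replicate 1 the difference was 0.02. Hk1, the form of most other tissues, differed by -0.43 ± 0.22 (SE), with a range of 1.20 to 2.54 over the 8 arrays. Its other kept probes did not share the sign: 3 differed by 0.23, 0.50 and 0.24, and 1 by -0.24, and the mean over probes differed by 0.06.

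Aldoa, the muscle aldolase that splits the hexose into triose phosphates, had signals of 11.94, 12.07, 11.73 and 12.18 in Prep1f/+ and of 11.81, 11.76, 11.82 and 11.98 in Prep1deltaSM. The Prep1deltaSM values lay within the range of the controls (-0.14 ± 0.11, SE), and the other Aldoa probe differed by -0.18. Aldoa was the brightest of all probes, so quantile normalization set its difference to 0. Aldoc, the brain-type aldolase, differed by -0.18 ± 0.25 (SE; range -3.35 to -2.11). Gpi1, which isomerises glucose phosphate to fructose phosphate, differed by 0.01 ± 0.09 (SE; range 8.92 to 9.22), and Tpi1, which interconverts the trioses, by -0.06 ± 0.10 (SE; range 8.91 to 9.25). The 95% interval of Gpi1 ran from -0.21 to 0.22 and that of Tpi1 from -0.28 to 0.16. The sign of Tpi1 turned with quantile normalization (0.02) and that of Gpi1 with median centring (-0.01). A second, dimmer probe of each gene had the opposite sign, at 0.20 for Tpi1 and -0.05 for Gpi1. In the mean of probes both turned, to 0.07 for Tpi1 and -0.02 for Gpi1.

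**Figure D2:**
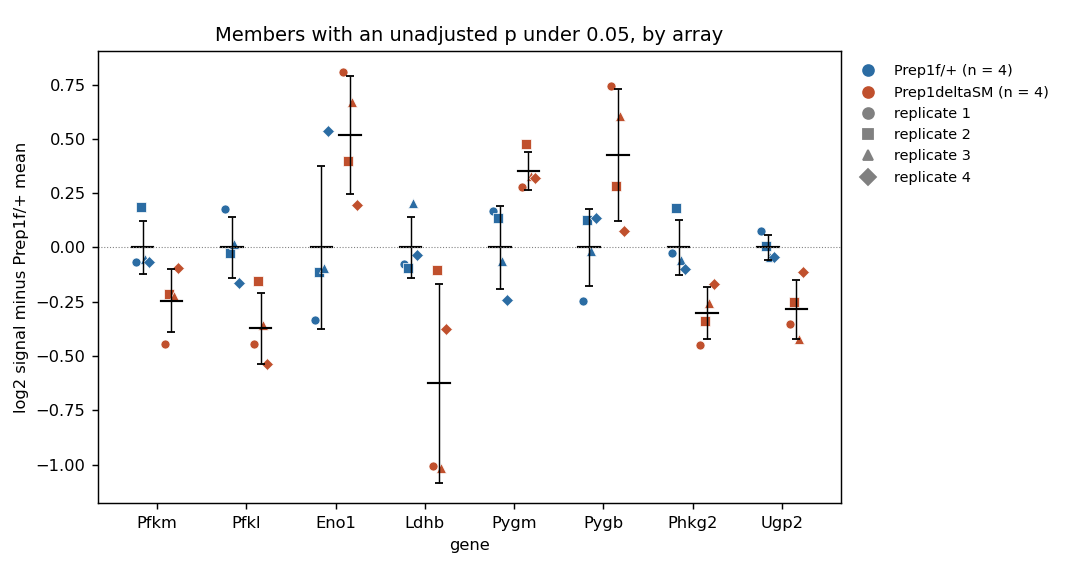
Log2 signal of each array minus the Prep1f/+ mean of the gene (y axis) for the 8 genes with an unadjusted p under 0.05; points are single mice, horizontal lines are group means and bars are SD (n = 4 per group). Pfkm, Ldhb, Pygm, Phkg2 and Ugp2 have no overlap between groups, and 2 of the 4 Prep1deltaSM mice carry most of the Ldhb difference.

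The lower part of glycolysis, which harvests ATP on the way from the triose phosphates to pyruvate, held 7 genes, 4 higher and 3 lower (median 0.04). The largest difference in this group was that of Eno1. Eno1, the enolase of non-muscle cells (chromosome 4, from 149618134 to 149618359 in mm9, longer than the probe), had signals of -0.80, -0.58, -0.56 and 0.07 in Prep1f/+ and of 0.34, -0.07, 0.20 and -0.27 in Prep1deltaSM. Prep1f/+ replicate 4 lay among the Prep1deltaSM mice, so the groups overlapped. The difference was 0.52 ± 0.21 (SE; 95% interval 0.04 to 0.99; exact permutation p = 0.0857; limma adjusted p = 0.281), higher on all 4 slides, and it was 0.33 with normexp and quantile normalization.

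Eno3, the muscle enolase, had signals of 10.51, 10.60, 10.33 and 10.66 in Prep1f/+ and of 10.38, 10.37, 10.44 and 10.49 in Prep1deltaSM. These overlapped, with a difference of -0.11 ± 0.09 (SE). Pgam2, the muscle phosphoglycerate mutase, had 9.72, 9.79, 9.50 and 9.96 in Prep1f/+ and 9.66, 9.59, 9.81 and 9.78 in Prep1deltaSM. The Prep1deltaSM values lay inside the control range (-0.03 ± 0.11, SE), and the sign turned with quantile normalization (0.12). Pgam1, the mutase of other tissues, differed by 0.14 ± 0.19 (SE; range 2.76 to 3.59).

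Pkm2 (Pkm in current names), pyruvate kinase, had signals of 7.64, 7.90, 7.44 and 7.48 in Prep1f/+ and of 7.57, 7.54, 7.58 and 7.57 in Prep1deltaSM. The 4 Prep1deltaSM mice were nearly level (SD 0.02) and lay within the controls (SD 0.21), with a difference of -0.05 ± 0.11 (SE). The probes of this gene were not assigned to its splice forms, and the other 2 kept probes differed by 0.16 and 0.07. Gapdh, the dehydrogenase step, differed by 0.07 ± 0.10 (SE; range 9.89 to 10.28) and Pgk1, the first ATP-yielding kinase, by 0.04 ± 0.08 (SE; range 7.84 to 8.09). The 95% intervals were -0.15 to 0.29 for Gapdh and -0.15 to 0.23 for Pgk1. The array design places the Pgk1 probes on chromosome 3, where the reference table has Pgk1 on chromosome X, so a near-identical copy may share these signals.

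The lactate, gluconeogenic and glycerol phosphate branches held 6 genes, 1 higher and 5 lower (median -0.09). Ldhb, the heart-type subunit of lactate dehydrogenase found mainly in slow, oxidative fibres (chromosome 6, from 142438838 to 142438897 in mm9), had signals of 6.42, 6.40, 6.70 and 6.46 in Prep1f/+ and of 5.49, 6.39, 5.48 and 6.12 in Prep1deltaSM. All 4 Prep1deltaSM values lay below all controls, but replicate 2 was nearly level with the lowest control, while replicates 1 and 3 were far lower. Within Prep1f/+ the SD was 0.14, and within Prep1deltaSM it was 0.46. The difference of -0.62 ± 0.21 (SE; 95% interval -1.11 to -0.14; exact permutation p = 0.0286; limma adjusted p = 0.233), 1.54-fold lower, was present on all 4 slides, at -0.91, -0.31, -0.29 and -0.97. It was -0.50 without Prep1deltaSM replicate 1 and -0.49 without replicate 3.

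Ldha, the muscle-type subunit that favours lactate formation, had signals of 9.82, 9.94, 9.83 and 9.89 in Prep1f/+ and of 9.77, 9.84, 9.76 and 9.89 in Prep1deltaSM. The groups overlapped, and the spread between mice was among the lowest on the array (pooled SD 0.06; 1.4% of genes had a lower one). The difference was -0.05 ± 0.08 (SE; 95% interval -0.23 to 0.12). Its sign was not settled: the other Ldha probe differed by 0.10, and quantile normalization gave 0.09.

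Because Ldhb is a slow fibre gene, the 9 slow fibre markers are given beside it. All 9 were lower in Prep1deltaSM (median -0.44, where fast fibre markers had -0.08), as were 62.7% of all genes. Of the 9, 0 had an unadjusted p under 0.05 (limma), and 0 passed an adjusted p of 0.05. Their summed linear signal was 766 to 816 times the 75th percentile in Prep1f/+ and 662 to 721 times in Prep1deltaSM. That sum is mostly Myl3, with a mean log2 signal of 9.43 where the next brightest, Tpm3, had 3.47. Myl3 differed by -0.13. The mean log2 signal of the 9 markers, centred on each gene's mean, overlapped between groups. It was 0.67, -0.31, 1.08 and -0.27 in Prep1f/+ and -0.11, -0.76, 0.33 and -0.63 in Prep1deltaSM. Prep1deltaSM replicates 1 and 3, the lowest in Ldhb, were the highest of their group in this mean. Over the 8 mice the mean had r = 0.14 with Ldhb (exact permutation p = 0.74; Spearman rho 0.31, exact p = 0.462). Without the 2 mice farthest from the median, Prep1f/+ replicates 1 and 3, r was -0.72 (exact permutation p = 0.111). Ldha, Pfkm and Pygm had r of -0.46, 0.07 and -0.40 and rho of -0.62, 0.19 and -0.43, and of the 4 relations the lowest adjusted p was 0.647 for r and 0.46 for rho. With the mean of each genotype removed, r was -0.35 for Ldhb, -0.867 for Ldha, -0.465 for Pfkm and -0.021 for Pygm, so that Ldhb and Pfkm turned sign; these 4 values carry no test.

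Slc16a3, the transporter that exports lactate from fast fibres, had signals of 7.98, 7.87, 7.41 and 7.57 in Prep1f/+ and of 7.50, 7.54, 7.64 and 7.72 in Prep1deltaSM. The Prep1deltaSM values lay within the control range (-0.11 ± 0.14, SE). Slc16a1, the lactate transporter of oxidative fibres and other tissues, differed by -0.19 ± 0.14 (SE; range 2.88 to 3.57), and its other probes by -0.09 and 0.21. Fbp2, the muscle fructose bisphosphatase, had 0.76, 0.86, 0.85 and 1.5 in Prep1f/+ and 1.46, 1.28, 1.58 and 0.76 in Prep1deltaSM, where 1 mouse of each group lay among the other group (0.28 ± 0.22, SE). Gpd1, the cytosolic dehydrogenase that makes glycerol phosphate, differed by -0.08 ± 0.11 (SE; range 8.03 to 8.46), and its other probe by 0.17. None of these 4 genes separated the groups.

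Glycogen breakdown held 7 genes, 5 higher and 2 lower (median 0.19), and 3 of the 7 had an unadjusted p under 0.05, where 15.9% of all genes did; in so few genes this is a description. Pygm, muscle glycogen phosphorylase (chromosome 19, from 6397893 to 6398064 in mm9, longer than the probe), had signals of 6.27, 6.24, 6.04 and 5.86 in Prep1f/+ and of 6.38, 6.58, 6.43 and 6.42 in Prep1deltaSM. All 4 Prep1deltaSM mice lay above all controls. The difference was 0.35 ± 0.11 (SE; 95% interval 0.09 to 0.60; exact permutation p = 0.0286; limma adjusted p = 0.222), 1.27-fold higher, with 0.13, 0.53, 0.15 and 0.56 on slides 1 to 4. It stayed between 0.26 and 0.42 under all alternatives tried.

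Pygb, the brain-type phosphorylase (chromosome 2, from 150656541 to 150656600 in mm9), had signals of -3.14, -2.77, -2.91 and -2.76 in Prep1f/+ and of -2.15, -2.61, -2.29 and -2.82 in Prep1deltaSM. Prep1deltaSM replicate 4 lay among the controls, and the other 3 lay above them. The difference was 0.43 ± 0.16 (SE; exact permutation p = 0.0857; limma adjusted p = 0.263). Its other probe differed by 0.06, and with normexp and quantile normalization the difference was 0.15.

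Phosphorylase kinase, the enzyme that switches phosphorylase on, consists of a catalytic gamma subunit and regulatory alpha, beta and calmodulin subunits. Phkg2, the gamma subunit of liver and other tissues (chromosome 7, from 134726594 to 134726653 in mm9), had signals of 1.76, 1.97, 1.73 and 1.69 in Prep1f/+ and of 1.34, 1.45, 1.53 and 1.62 in Prep1deltaSM. All 4 Prep1deltaSM mice lay below all controls, with a difference of -0.30 ± 0.10 (SE; exact permutation p = 0.0286; limma adjusted p = 0.224). It was -0.18 with normexp and quantile normalization. A dimmer Phkg2 probe, well above background on 5 of the 8 arrays, differed by 0.20 ± 0.30 (SE), and the mean of both probes by -0.05.

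Phkg1, the muscle gamma subunit, had signals of 3.48, 3.45, 3.58 and 3.29 in Prep1f/+ and of 3.31, 3.41, 3.40 and 3.61 in Prep1deltaSM. These overlapped (-0.02 ± 0.10, SE), and quantile normalization gave 0.06. Phka1, the muscle alpha subunit, had 0.25, 1.69, 1.72 and 1.04 in Prep1f/+ and 1.62, 1.33, 1.56 and 1.69 in Prep1deltaSM on its brightest probe. Low values of Prep1f/+ replicates 1 and 4 made the controls spread widely (SD 0.69, against 0.15 in Prep1deltaSM), and the difference was 0.37 ± 0.31 (SE; limma adjusted p = 0.57). With each mouse left out in turn it ranged from 0.07 to 0.56, and the lowest value was that without Prep1f/+ replicate 1.

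The 3 Phka1 probes are shown because they shared the sign but not the precision. All have 60 bases and lie on the minus strand of chromosome X in mm9; the first 30 bases are given.

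A_52_P706912: ctgctacgtgtaagtattttggacaaatga

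A_52_P196825: aagcagatggtatttaaaagaaatattttt

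A_52_P278311: tggattttatcaaaaagtatggaaaatttt

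A_52_P706912, from 99748131 to 99748190, is the brightest probe and was designed on a cDNA clone, as was A_52_P196825, from 99738737 to 99738796, which differed by 0.47 ± 0.28 (SE). A_52_P278311, from 99712813 to 99716129, was designed on the RefSeq transcript and also spans more than its own length. Its signals were 0.76, 0.38, 0.44 and 0.82 in Prep1f/+ and 1.08, 1.39, 1.08 and 1.09 in Prep1deltaSM. On this probe all 4 Prep1deltaSM mice lay above all controls (0.56 ± 0.13, SE; limma adjusted p = 0.112 over all kept probes).

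Phkb, the beta subunit, gave the same kind of picture. Its brightest probe differed by 0.19 ± 0.11 (SE; range 2.53 to 3.09 over the arrays). A second probe of the same transcript, A_51_P307624, had signals of 2.34, 2.53, 2.40 and 2.34 in Prep1f/+ and of 2.79, 2.96, 2.71 and 2.76 in Prep1deltaSM. These did not overlap (0.40 ± 0.09, SE; limma adjusted p = 0.108 over all kept probes). The last probe differed by 0.22 ± 0.26 (SE). Phka2, the alpha subunit of liver, differed by 0.04 ± 0.15 (SE; range 0.18 to 0.70).

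Over the 67 kept probes of the 37 genes, 11 had an unadjusted p under 0.05, where 17.8% of all kept probes did, and 0 had an adjusted p under 0.05, where 0.00408% of all kept probes did. Of the 20 genes with several kept probes, 10 had probes that differed in sign. The probes named for Phka1 and Phkb were singled out after their values were seen.

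**Figure D3:**
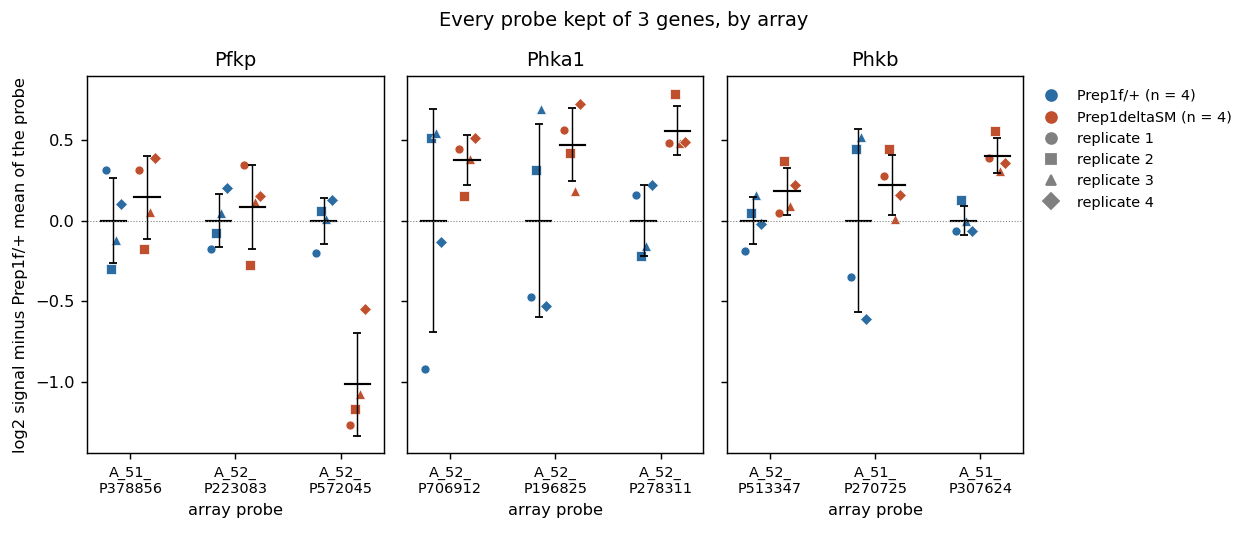
Log2 signal of each array minus the Prep1f/+ mean of the probe (y axis) for every kept probe of Pfkp, Phka1 and Phkb; points are single mice, lines are group means and bars SD (n = 4 per group). The Pfkp probe A_52_P572045 lies 1.02 below the controls while the other 2 Pfkp probes do not separate the groups, and the probes of Phka1 and of Phkb have group means on the same side.

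Glycogen synthesis held 6 genes, 3 higher and 3 lower (median -0.05). Ugp2, which makes the UDP-glucose that synthase adds to the chain (chromosome 11, from 21221281 to 21221340 in mm9), had signals of 5.53, 5.46, 5.41 and 5.41 in Prep1f/+ and of 5.10, 5.20, 5.03 and 5.34 in Prep1deltaSM. The controls lay close together (SD 0.06), and all 4 Prep1deltaSM mice lay below them. The difference was -0.29 ± 0.09 (SE; 95% interval -0.49 to -0.08; exact permutation p = 0.0286; limma adjusted p = 0.219), with -0.36, -0.21, -0.19 and -0.38 on slides 1 to 4. The other Ugp2 probe differed by -0.18 ± 0.16 (SE).

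Gys1, muscle glycogen synthase, had signals of 2.71, 2.38, 2.11 and 2.26 in Prep1f/+ and of 2.53, 2.76, 2.61 and 2.59 in Prep1deltaSM. Prep1f/+ replicate 1 lay among the Prep1deltaSM mice and the other 3 controls lay below them (0.26 ± 0.13, SE; limma adjusted p = 0.382). Gyg, glycogenin, the primer of the granule, differed by -0.19 ± 0.10 (SE; range 7.35 to 7.75). Gbe1, the branching enzyme, differed by -0.13 ± 0.21 (SE; range 4.04 to 4.94).

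Ppp1r3a and Ppp1r3c encode subunits that bring protein phosphatase to glycogen, where it activates synthase. Ppp1r3a, the muscle form, had signals of 4.19, 3.71, 3.99 and 3.64 in Prep1f/+ and of 3.87, 4.13, 4.09 and 3.89 in Prep1deltaSM, which overlapped (0.12 ± 0.14, SE). Ppp1r3c had the widest spread of the 37 genes, wider than that of 98.7% of all genes (pooled SD 0.93). Its values were 5.82, 3.69, 4.25 and 4.84 in Prep1f/+ and 4.80, 3.85, 4.12 and 5.95 in Prep1deltaSM. The difference of 0.03 ± 0.56 (SE) has a 95% interval of -1.24 to 1.31. The other Ppp1r3c probe differed by 0.60 ± 0.55 (SE), and the mean of both probes by 0.31. In both groups the highest value came from slide 3. Hk2 had its highest values on the same 2 arrays. With 1 array of each group on a slide, a slide and the pair of mice on it cannot be told apart.

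The bifunctional enzymes Pfkfb1 and Pfkfb3 set the level of the sugar bisphosphate that activates phosphofructokinase. Pfkfb3 had signals of 5.23, 4.74, 5.03 and 4.88 in Prep1f/+ and of 4.19, 5.07, 4.53 and 2.98 in Prep1deltaSM. Prep1deltaSM replicate 4 was far below the other mice and replicate 2 lay among the controls. The difference of -0.78 ± 0.39 (SE; limma adjusted p = 0.369), the largest in size among the 37 genes, was -0.37 without Prep1deltaSM replicate 4. The other Pfkfb3 probes differed by -0.61 and -0.26. Pfkfb1, the form of muscle and liver, had 4.16, 4.62, 4.62 and 4.54 in Prep1f/+ and 4.27, 4.79, 4.68 and 4.24 in Prep1deltaSM, which overlapped (0.01 ± 0.17, SE).

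**Figure D4:**
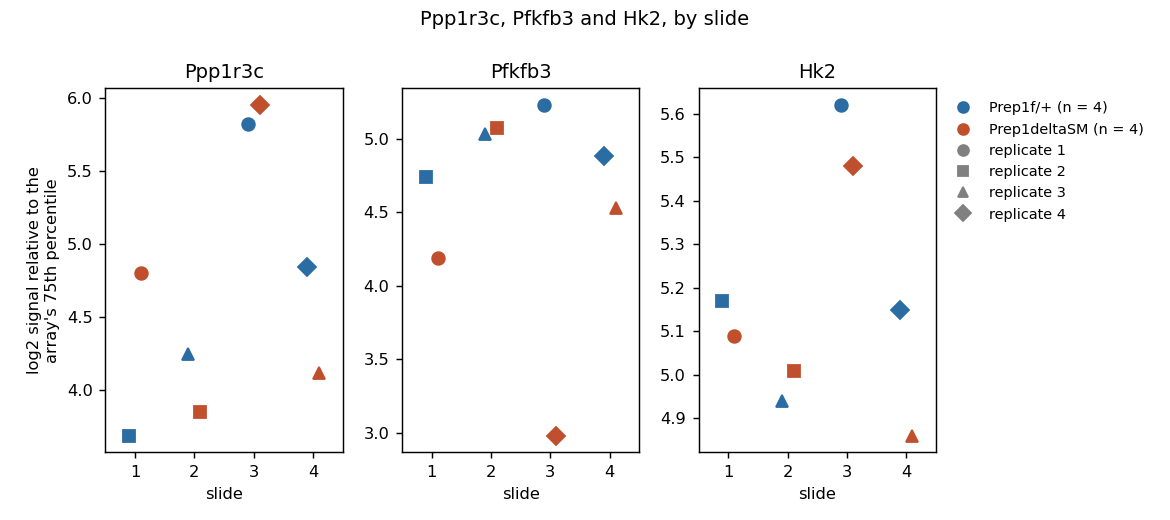
Log2 signal relative to the 75th percentile of the array (y axis) by slide (x axis) for Ppp1r3c, Pfkfb3 and Hk2; each point is 1 mouse, and each slide holds 1 mouse of each group. On slide 3 both mice are highest in Ppp1r3c and in Hk2, while Pfkfb3 in the Prep1deltaSM mouse of that slide is 2.98, the lowest of its 8 values.

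The forms of an enzyme were then set against each other as ratios within an array, which a shift of the whole array leaves as they are. Of the 8 ratios, 1 did not overlap between groups: Phkg1 to Phkg2, the muscle over the liver gamma subunit, was higher by 0.28 in Prep1deltaSM (exact permutation p = 0.0286, the smallest that 70 assignments can give; 0.152 adjusted over the 8 ratios). The gap was narrow: relative to the Prep1f/+ mean, the nearest values of Phkg1 to Phkg2 were 0.21 (Prep1deltaSM replicate 3) and 0.19 (Prep1f/+ replicate 3). Ldha to Ldhb was higher by 0.57 (exact permutation p = 0.0571, adjusted 0.152) and Eno3 to Eno1 lower, at -0.62 (exact permutation p = 0.0571, adjusted 0.152). Prep1deltaSM replicate 2 lay among the controls in Ldha to Ldhb, and Prep1deltaSM replicate 4 did so in Eno3 to Eno1. The other 5 ratios differed by -0.39 (Pfkm to Pfkp), 0.32 (Hk2 to Hk1), -0.08 (Pygm to Pygb), 0.08 (Slc16a3 to Slc16a1) and 0.04 (Aldoa to Aldoc), and the lowest of their exact permutation p-values was 0.2. With normexp and quantile normalization the ratio of Pygm to Pygb turned to 0.27. Each gene is read in these ratios by its brightest probe. In the mean of its probes Phkg2 differed by -0.05 in place of -0.30, while Phkg1 stayed at -0.02. The size of the Phkg1 to Phkg2 ratio thus depends on the Phkg2 probe that is read. Hk1 and Pfkp turned sign in the mean of probes, to 0.06 and -0.26, so their ratios depend on the probe too. A second ratio also did not overlap without any 1 of Prep1f/+ replicate 2, Prep1f/+ replicate 4, Prep1deltaSM replicate 2 or Prep1deltaSM replicate 4, so the count was 2 in each of these fits.

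**Figure D5:**
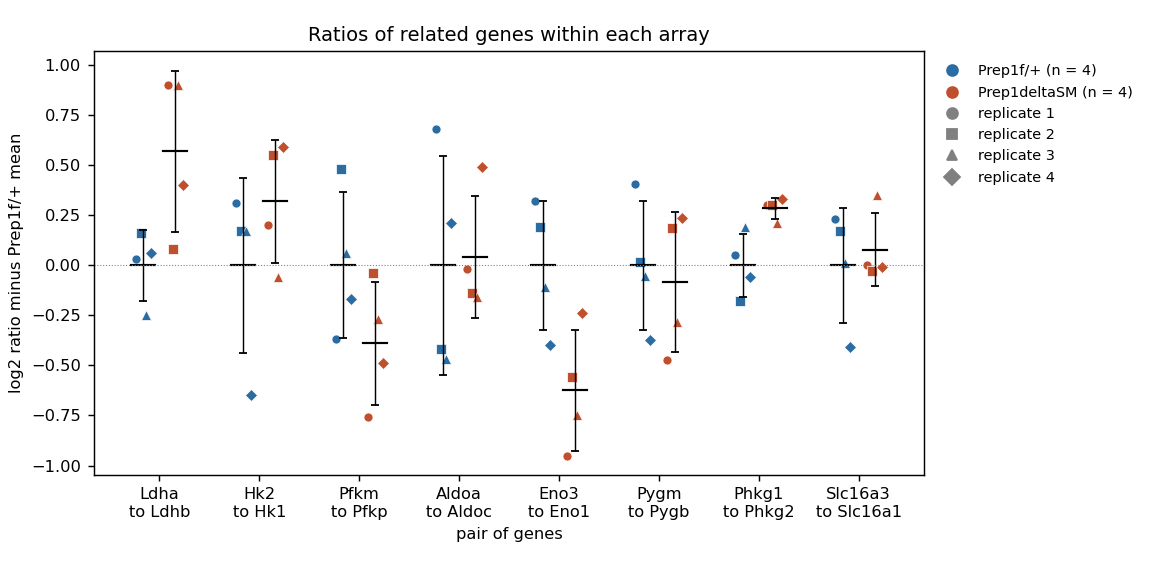
Log2 ratio of related genes within each array, minus the Prep1f/+ mean of the ratio (y axis), for 8 pairs of enzyme forms; points are single mice, lines are group means and bars SD (n = 4 per group). Each gene is read by its brightest probe. The groups separate narrowly for Phkg1 to Phkg2 (nearest values 0.21 and 0.19), and 1 Prep1deltaSM mouse lies among the controls for Ldha to Ldhb and for Eno3 to Eno1.

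Other genes of the pathway were listed apart from the 37: 54 genes, of which 53 were on the array and 45 passed the filter on dim probes. Of the 45, 20 were higher and 25 lower (median -0.08), 0 passed an adjusted p of 0.05 (lowest 0.163, limma), and 7 had an unadjusted p under 0.05, which is 15.6% against 15.9% of all genes. The groups did not overlap for 4 of the 45 (Gpd2, G6pdx, Pgd and Galk1), which is 8.89% against 10.5% of all genes. Gpd2, the mitochondrial partner of Gpd1 in the glycerol phosphate shuttle, had signals of 3.58, 3.65, 3.65 and 3.59 in Prep1f/+ and of 3.90, 4.05, 3.90 and 3.87 in Prep1deltaSM. All 4 Prep1deltaSM mice lay above the controls, which were nearly level (0.31 ± 0.08, SE; limma adjusted p = 0.163). In the pentose phosphate pathway, G6pdx, the enzyme of the first step, had 0.17, 0.39, 0.44 and 0.20 in Prep1f/+ and 0.02, -0.36, -0.05 and -0.20 in Prep1deltaSM. The groups did not overlap (-0.45 ± 0.11, SE, limma adjusted p = 0.171), nor did they for Pgd, the second dehydrogenase (-0.23 ± 0.09, SE, limma adjusted p = 0.254). Lower were 5 of the 7 genes of that pathway, where 62.7% of all genes were. Galk1 (-0.44 ± 0.15, SE) and Galt (-0.23 ± 0.10, SE) of galactose use, the synthase kinase gene Gsk3b (0.35 ± 0.13, SE) and Pgm2l1 (0.31 ± 0.14, SE) were the other 4 at an unadjusted p under 0.05. The count of 7 was 4 without Prep1f/+ replicate 3, without Prep1deltaSM replicate 2 and with slide as a block.

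Markers of other cell types are given because several of the enzyme forms above (Pfkl, Pfkp, Hk1, Eno1, Pygb) are those of non-muscle cells. In Prep1deltaSM, 6 of 6 measured adipocyte markers were lower (median -1.03), 6 of 7 fibroblast, 6 of 6 tendon and 7 of 7 measured leukocyte markers were lower (medians -0.42, -0.57 and -0.47), and 3 of 3 measured erythroid markers were higher (median 1.03). Of all genes, 62.7% were lower and 37.3% higher. At an unadjusted p under 0.05 (limma) were 0 adipocyte, 0 erythroid, 3 fibroblast, 1 tendon and 2 leukocyte markers, where 15.9% of all genes were. Other lists were split: endothelium (2 higher, 2 lower), Schwann cell (3 higher, 1 lower) and keratinocyte (1 higher, 2 lower). Lep of the adipocyte list, Cd79a of the leukocyte list and Epb4.2 of the erythroid list did not pass the filter on dim probes. The summed adipocyte signal was 134 to 171 times the 75th percentile in Prep1f/+ and 101 to 168 times in Prep1deltaSM, and the summed leukocyte signal 16.0 to 34.8 and 11.0 to 19.3 times. The summed fibroblast signal was 399 to 680 and 304 to 702 times, the tendon signal 41.4 to 67.0 and 34.6 to 50.6 times and the erythroid signal 93.8 to 355 and 151 to 676 times. These 5 sums overlapped between groups. The adipocyte sum is mostly Fabp4, which had a mean log2 signal of 6.77 and differed by -0.14. The summed smooth muscle signal did not overlap, at 186 to 230 times in Prep1f/+ and 242 to 270 times in Prep1deltaSM. That sum is mostly Acta2, with a mean log2 signal of 7.61 where the next brightest, Tagln, had 4.81. Of its markers, Myh11 (0.44) and Acta2 (0.44) were higher and Tagln (-0.23) and Cnn1 (-0.04) lower. At an unadjusted p under 0.05 (limma) were 2 of these 4, where 15.9% of all genes were. The slow fibre sum given above, which is mostly Myl3, did not overlap either. Of all these lists, 0 markers passed an adjusted p of 0.05, and their part in the differences above was not tested.

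Promoters were read from RefSeq (GRCm38.p6) for 36 of the 37 genes, 52 start sites with 250 bases before and 50 after each, and 3 motifs were counted on both strands. TGACAG, the core site of Prep1 and Meis proteins, was in 5 of the 52 (9.62%; 19.2% of all 32851 promoters), those of Pfkl, Gys1, Pfkfb1 and Aldoc. CAGCTG, an E-box of myogenic factors, was in 14 (26.9%; 16.3% of all), and ACGTG, the core of the hypoxia response element, in 22 (42.3%; 19.6% of all). The 250 bases before the start are given for 3 genes with an unadjusted p under 0.05 in different roles: Pfkl (chr10:78009808-78010057, minus strand), which holds the Prep1 core site, and Pygm (chr19:6384158-6384407, plus strand) and Ldhb (chr6:142507958-142508207, minus strand), which do not. Each runs 5′ to 3′ along the gene, and capitals mark any of the 3 motifs or its reverse complement.

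Pfkl: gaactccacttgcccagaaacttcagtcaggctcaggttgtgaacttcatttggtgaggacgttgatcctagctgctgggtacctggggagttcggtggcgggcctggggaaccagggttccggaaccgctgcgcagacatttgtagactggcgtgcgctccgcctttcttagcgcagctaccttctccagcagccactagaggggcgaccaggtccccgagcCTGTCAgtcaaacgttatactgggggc

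Pygm: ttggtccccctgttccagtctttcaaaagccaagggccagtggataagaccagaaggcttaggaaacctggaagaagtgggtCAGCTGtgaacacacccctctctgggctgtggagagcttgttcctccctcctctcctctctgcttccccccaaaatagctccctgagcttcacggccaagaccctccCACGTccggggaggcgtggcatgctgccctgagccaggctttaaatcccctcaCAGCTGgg

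Ldhb: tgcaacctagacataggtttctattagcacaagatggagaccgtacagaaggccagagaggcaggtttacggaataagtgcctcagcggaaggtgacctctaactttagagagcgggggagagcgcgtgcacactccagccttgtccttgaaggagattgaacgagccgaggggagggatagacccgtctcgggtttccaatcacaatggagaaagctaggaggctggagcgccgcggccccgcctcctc

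In Pfkl the Prep1 core site lies 27 bases before the start and reads TGACAG on the strand opposite to the gene. The Pygm window holds the E-box at 168 and at 8 bases before the start and the hypoxia core at 61, and the Ldhb window none of the 3. Of the other genes with the Prep1 core site, Gys1 differed by 0.26, Pfkfb1 by 0.01 and Aldoc by -0.18. A match is a stretch of letters, and no binding was measured here.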

How the data were processed

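An Agilent 1-colour array (Cy3) was made per muscle, for 8 muscles. Per the file headers, Feature Extraction 10.5.1.1 made the deposited intensity of each spot, which is background-subtracted; the version in the submitters' processing notes is 9.1. The authors also deposited a table of normalized intensity values, 32812 rows, of which 26228 lay within 0.1 (log2) of quantile-normalized spot values and served as an alternative. Because its rows were chosen by that closeness, this alternative is not independent of quantile normalization. Non-uniform spots (0 to 11 per array) were set missing. Each log2 intensity was expressed relative to its array's 75th percentile and averaged over the spots of a probe. A probe was kept if it was well above background on 4 or more of 8 arrays (24488 of 41174), and the brightest stood for its gene. Genotypes were compared by limma 3.58.1 (lmFit, eBayes; R 4.3.3), adjusted by Benjamini-Hochberg over 16016 genes or over kept probes where said. Exact permutation tests were two-sided, over mice. The fit was tested on simulated data. All 37 genes matched the RefSeq table of GRCm38.p6 by symbol or synonym. Probe positions are in mm9, as the files give them, and no mm9 annotation was used here. The genes and lists were chosen with earlier results of these data known. Of the 37 genes, all arrays are given for those at an unadjusted p under 0.05, the smallest p of each role and the muscle forms, and mostly ranges for others. Alternatives were quantile normalization, normexp (offset 50) with quantile normalization, median centring, other filters, the mean of probes, the authors' values, blocking on slide, a fit with trend and robust variance, leaving out each mouse and, added after seeing the data, setting population-outlier spots missing.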

Additional observations from a re-analysis of the deposited data

Results flagged for a closer look

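In 9 of 100 groups of 4 values examined, 1 array stood apart from the other 3: its gap to the nearest value, as a ratio to the range of the group, was above Dixon's critical value at 95%. Chance gives about 5. For Pfkm in Prep1f/+ the ratio was 0.957, where replicate 2 at 10.41 was highest, and for Tpi1 in the same group it was 0.83, where replicate 2 at 9.25 was again highest. For Hk1 in Prep1deltaSM it was 0.955, where replicate 2 at 1.2 was lowest. For Fbp2 in Prep1f/+ it was 0.868, where replicate 4 at 1.5 was highest, and for Pfkfb1 in Prep1f/+ 0.833, where replicate 1 at 4.16 was lowest. For Gpd1 in Prep1deltaSM it was 0.861, where replicate 1 at 8.13 was lowest. Among the marker lists, the mean of the Prep1f/+ fibroblast markers had a ratio of 0.851 (replicate 1 lowest), that of the tendon markers 0.893 (replicate 3 lowest) and that of the Schwann cell markers 0.862 (replicate 3 highest).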

How the results depend on the processing

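Under each alternative run, 0 of the 37 genes passed an adjusted p of 0.05 (limma). With slide as a block the Pknox1 difference of -1.76 had an adjusted p of 0.062; the difference was -0.89 with normexp and quantile normalization, and it ranged from -1.84 to -1.68 with each mouse left out. The count of all genes past the threshold was 26 with normexp and quantile normalization, 20 with a trended robust fit, 0 with slide as a block and 0 to 5 with each mouse left out. The median of the 37 differences was 0.0552 with quantile normalization, 0.0475 with normexp, 0.0116 with the mean of probes, 0.0532 with the authors' values (26 genes) and -0.10 to -0.0117 with each mouse left out. The count at an unadjusted p under 0.05 was 4 to 10 with each mouse left out. For the other pathway genes it was 4 without the filter, 4 with slide as a block and 4 to 8 with each mouse left out. The count of ratios without overlap was 2 with quantile normalization and 1 to 2 with each mouse left out. The authors' values used were only those close to quantile-normalized values, so they largely repeat that setting and are no separate check on it. The sign of 13 of the 37 differences turned in at least 1 alternative. With the mean of probes Hk1 turned from -0.43 to 0.06 and Pfkp from 0.15 to -0.26. Tpi1 (0.0689), Gpi1 (-0.0241) and Gpd1 (0.0496) turned in that setting too. Tpi1 (0.0152) and Gpd1 (0.0301) turned with quantile normalization, Gpi1 with median centring (-0.0102), Phka2 with the authors' values (-0.0119), and Ppp1r3c ranged from -0.39 to 0.42 over all alternatives. Among genes shown on all arrays, signs turned with quantile normalization for Ldha (0.0917), Pgam2 (0.12), Phkg1 (0.0552) and Pkm2 (0.0434); with normexp Ldha (0.11), Pgam2 (0.0599), Phkg1 (0.0072) and Pkm2 (0.0327); with the mean of probes Ldha (0.0233) and Pkm2 (0.0571); with the authors' values Pgam2 (0.12), Phkg1 (0.0559) and Pkm2 (0.0504); and with median centring Pfkfb1 (-0.0045). With each mouse left out, Hk2 ranged from -0.23 to 0.0237, Pgam2 from -0.11 to 0.0397, Phkg1 from -0.0772 to 0.0264, Pkm2 from -0.11 to 0.0442 and Pfkfb1 from -0.10 to 0.10. The cause was not tested. The labels give the mice no shared numbers, so the only pairing is by slide, and its values are those given with slide as a block.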
